A study of Mus musculus with 28 samples.

Results

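Malat1 and Neat1 are long noncoding RNAs that stay in the nucleus, and they are the 2 genes described here out of 23350 listed in at least 1 of the 28 deposited tables. They were chosen by measured values: Malat1 was lower with papain than without it in the AEC1 and the ILC2 libraries, and Neat1 was chosen together with it. The values of both genes in those comparisons are therefore given as a description, with no test. For the same reason Malat1 is described without a test wherever AEC1 or ILC2 conditions are compared.

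The libraries came from cells sorted from lungs of wild-type C57BL/6 mice aged 8 weeks, labelled as alveolar epithelial cells of type 1 and type 2 (AEC1 and AEC2), ILC2 (innate lymphoid cells of group 2) and basophils. Mice were left untreated, received papain (a plant protease that provokes allergic inflammation, 50 µg per day into the nose), or received papain with FK506 (tacrolimus, a calcineurin inhibitor, 0.2 mg per day into the peritoneum). There were 2 libraries per condition for AEC1 and for AEC2, and 3 per condition for ILC2. Basophils had 3 papain libraries, 3 with FK506 and 1 untreated library, whose title names 2 controls. No label says whether the libraries of a group came from separate animals, so p-values concern these libraries only. In the test used (limma), the spread of each gene is also drawn towards that of genes at like levels.

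Malat1 is among the most abundant RNAs of many mammalian cells and gathers in nuclear speckles, bodies rich in splicing factors. Neat1 is the scaffold of paraspeckles, nuclear bodies built on its long form together with proteins such as Sfpq, Nono and Pspc1. The long form of each ends without an ordinary poly(A) tail: RNase P cuts the primary transcript, and a U-rich, A-rich triple helix protects the new end. The short form of Neat1 ends at an ordinary polyadenylation signal.

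Both genes lie on the minus strand of chromosome 19, and their annotated ends are 22035 bases apart. In GENCODE M21 (GRCm38), Malat1 (ENSMUSG00000092341.3) spans chr19:5795690-5802672 and Neat1 (ENSMUSG00000092274.3) spans chr19:5824708-5845478, both annotated as lincRNA. Malat1-201 is a single exon of 6983 bases, Neat1-201 (the long form) a single exon of 20771 bases, and Neat1-202 (the short form) has 2 exons and 3004 bases. The kit reads 3' ends by priming on A stretches, so the ends below are the parts of these RNAs that bear on what was counted. Capitals mark the A run and the stretch that Malat1 and long Neat1 share, and in short Neat1 the polyadenylation signal.
Malat1-201, bases 6586 to 6685, chr19:5795988-5796087: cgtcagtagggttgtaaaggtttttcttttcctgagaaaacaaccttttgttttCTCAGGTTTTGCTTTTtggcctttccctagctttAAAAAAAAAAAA
Neat1-201, bases 20672 to 20771, chr19:5824708-5824807: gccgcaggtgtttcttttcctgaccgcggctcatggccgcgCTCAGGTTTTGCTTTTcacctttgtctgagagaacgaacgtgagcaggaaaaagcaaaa
Neat1-202, bases 2905 to 3004, chr19:5842307-5842406: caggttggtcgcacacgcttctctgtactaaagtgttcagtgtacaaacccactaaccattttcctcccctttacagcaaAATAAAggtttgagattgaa

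The shared stretch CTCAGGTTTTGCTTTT, searched on the transcript strand, has 16 bases and lies upstream of the end in both RNAs. Of 141767 annotated transcripts, 2 held it, Malat1-201 and Neat1-201. Malat1-201 has 1 run of 10 or more A, 12 bases long and starting at base 6674, and 7.18% of all annotated transcripts hold such a run. Neat1-201 has none, its longest A run being 7 bases. The tables give 1 value per gene, so the forms of Neat1 cannot be told apart in them.

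Some libraries stood apart from their labels. AEC2 untreated replicate 2 and AEC2 papain replicate 2 nearly coincided: 97.6% of the genes above 0 in either were above 0 in both, against at most 66.4% for the other 377 pairs of libraries. Over 5551 genes with at least 20 reads in the pair, the median chi-square was 0.09, where counting noise alone gives 0.45, and 5.3% of genes differed beyond that noise at the 95% level. For the 54 other pairs with recovered reads, that share was 78.1 to 91.9%. These libraries differed by less than sampling noise for most genes and may be 1 library under 2 labels, so the AEC2 values of both genes are also given without them.

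Ager, an AEC1 marker, was at 37.1 to 114.4 CPM in the AEC1 libraries and at 1384 to 3505.7 CPM in the AEC2 libraries, and the AEC1 libraries held 5301.9 to 13001.2 CPM of fibroblast and smooth muscle markers against 427.6 to 859.9 CPM of AEC1 markers. The basophil-defining genes Mcpt8 and Fcer1a were listed at 0 in all 7 basophil libraries, which held 3456.5 to 11136.9 CPM of macrophage, monocyte and dendritic markers. The cell names below are those of the labels. ILC2 papain with FK506 replicate 3 listed Gata3, Il1rl1, Il2ra and Klrg1, genes that mark ILC2, at 0. Macrophage, monocyte and dendritic markers summed to 6918.0 CPM in it and to at most 1927.0 CPM in each of the remaining 8 libraries labelled ILC2, and its log2 values correlated best with a library labelled basophil (Pearson r = 0.76 across genes, with Basophil papain replicate 6). Recovered depth was 847753 to 975287 reads in AEC1 and 1206874 to 1336092 reads in 5 AEC2 libraries, and fewer cells of a type cannot be told apart from less RNA per cell.

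Malat1 was the more abundant RNA in every library, and its median level was highest in AEC1. Rescaled to counts per 1e6 over the genes common to all tables, its median was 57120 in AEC1 (lowest 27193, highest 142185), 24608 in basophils (12478 to 32376), 17614 in ILC2 (5679 to 37610) and 5695 in AEC2 (2143 to 8707). All neighbours in this order overlapped, while the AEC2 range lay below those of AEC1 and basophils. It ranked 1st among all genes in both untreated AEC1 libraries, between 2 and 8 in the other AEC1 libraries, 2 to 13 in ILC2, 2 to 4 in basophils and 17 to 51 in AEC2. The tables were normalized separately, so these levels across cell types are a description.

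Neat1 had another order. On the same scale its median was 499 in basophils (169 to 1456), 444 in ILC2 (0 to 555), 107 in AEC1 (40.2 to 432) and 96.3 in AEC2 (46.9 to 126). All neighbours in that order overlapped. In ILC2 papain replicate 3 it was listed at 0, and since Gapdh was also listed at 0 in most libraries, a 0 says only that.

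**Figure D1:**
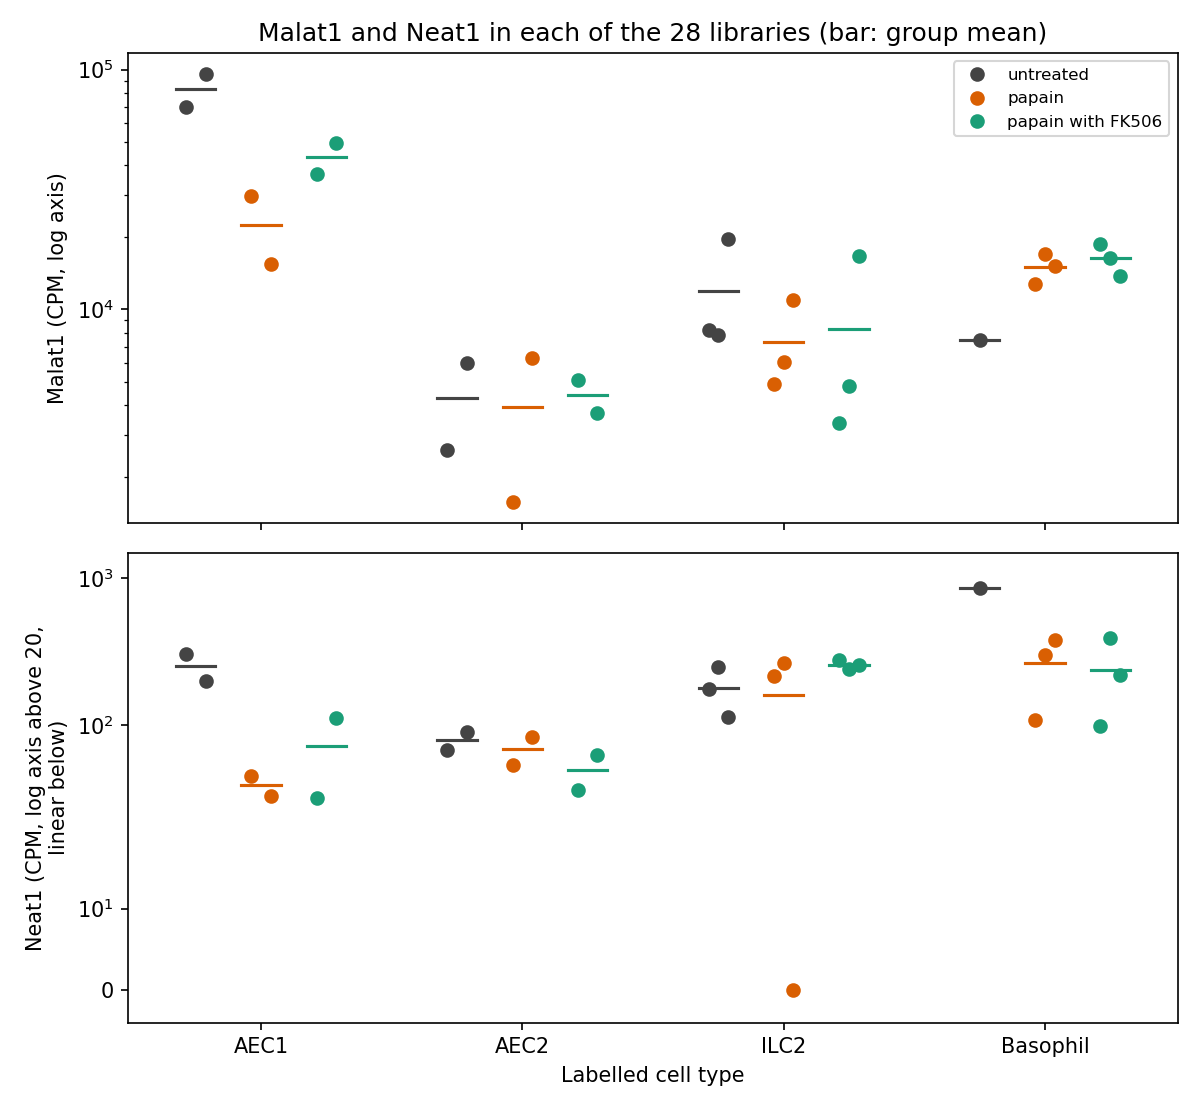
Malat1 (top) and Neat1 (bottom) in CPM in each of the 28 libraries, by labelled cell type and condition; points are libraries and bars are group means. Malat1 is at 69645.8 and 95482.2 CPM in untreated AEC1 and at 15521.8 and 29636.3 CPM with papain, and Neat1 in ILC2 papain has 1 library listed at 0.

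In AEC1, both RNAs were lower with papain in every library. Malat1 had 69645.8 and 95482.2 CPM untreated, 29636.3 and 15521.8 CPM under papain, and 36770.4 and 49204.8 CPM when FK506 was added. The 3 groups did not overlap, and the group with FK506 lay between the others. How many of all genes kept this order was not counted. The log2 difference between papain and untreated was -1.91 (SE 0.31), where the median of all 8178 genes was 0.16. With FK506 it was 0.84 (SE 0.31) above papain and -1.07 (SE 0.31) against untreated. The lowest library, papain replicate 2, stood apart in composition: mitochondrial mRNA made up 262144.2 CPM of it, against 69725.2 CPM in papain replicate 1, 159216.4 and 167806.6 CPM untreated and 76281.8 and 68164.8 CPM with FK506. Without it the difference was -1.58 for papain against untreated and 0.51 for FK506 against papain.

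Untreated AEC1 held 303.0 and 199.0 CPM of Neat1. The papain libraries had 44.5 and 32.8 CPM, and those with FK506 had 31.5 and 112.1 CPM. Untreated libraries were above all others, while the papain and FK506 groups overlapped. The papain value rests on 42 and 32 reads, whose exact Poisson 95% intervals are 32.0 to 60.1 and 22.4 to 46.3 CPM, for counting error only. Its log2 difference was -2.61 (SE 0.85) for papain against untreated. By limma with Benjamini-Hochberg adjustment, FK506 with papain differed from papain by 0.48 (SE 0.85, adjusted p = 0.96) and from untreated by -2.13 (SE 0.85, adjusted p = 0.399), neither past 0.05.

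Such gaps were common in AEC1: 14.2% of the genes tested were lower with papain than untreated in every library, and 14.4% were lower with FK506. The share of genes with an adjusted p under 0.05 was 0% for papain against untreated, 0% for FK506 against papain and 0.0245% for FK506 against untreated. Unadjusted, 761 genes had p under 0.05 for papain against untreated and 496 for FK506 against papain. These counts depended on the tool: DESeq2 on the recovered reads called 325 of 5641 genes for papain against untreated, 91 of 5165 for FK506 against papain and 483 of 5799 for FK506 against untreated. In these comparisons edgeR called 15, 0 and 29 of 8178. By unadjusted p, Malat1 stood 7th for papain, and since this comparison was used to choose it, its place is only a description. Just above it were Eef1g (log2 difference 6.43) and Serpina3n (6.48), and just below it Prc1 (6.75) and Cct7 (4.57), all near 0 CPM in untreated libraries.

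Other gene groups in AEC1 varied with the same conditions. The summed level of 20 nuclear speckle and splicing factors was 5703.5 and 5724.2 CPM untreated, 3986.3 and 2969.8 CPM with papain, and 5678.1 and 4821.9 CPM with FK506. None of the 20 passed the test for papain, and their median log2 difference was -0.50 against 0.16 for all genes. The 16 paraspeckle protein genes tested had a median of -0.03, with none past the test. AEC2 markers, surfactant genes among them, summed to 6305.2 and 9716.9 CPM untreated, 2349.7 and 1491.5 CPM with papain, and 1961.6 and 4475.4 CPM with FK506. Sftpc, which encodes surfactant protein C, was at 2304.1 and 3967.7 CPM untreated and at 931.8 and 453.1 CPM with papain. Like Malat1, these markers were higher in untreated libraries than in all others. Mesothelial markers summed to 5069.5 and 4057.5 CPM untreated, 2291.3 and 3328.6 CPM with papain, and 1415.5 and 1979.3 CPM with FK506. Ribosomal protein genes summed to 8607.0 and 7145.5 CPM untreated and to 10296.6 to 18292.5 CPM in the 4 treated libraries. Fibroblast and smooth muscle markers did not move alike. Col3a1 was at 1832.8 and 860.3 CPM untreated and at 4990.2 and 2403.0 CPM with papain. Acta2 was at 0 CPM in both untreated libraries and at 549.5 and 114.8 CPM with papain. Dcn was lower with papain, at 2658.7 and 1618.7 CPM against 3494.9 and 3002.8 CPM untreated. The part of these in the Malat1 values was not tested.

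In ILC2, Malat1 was lower with papain within each set of libraries that share a file-name code, but the groups overlapped over all 9. Replicates 1 and 2, which share 1 code, were at 8235 and 7841 CPM untreated, 4889 and 6014 CPM with papain, and 3358 and 4794 CPM with FK506. Replicate 3, which carries the code of the basophil tables, was higher throughout, at 19699, 10943 and 16711 CPM in the same order. With the code as a term, the log2 difference was -0.94 (SE 0.20) for papain against untreated, with a median of -0.22 over 6271 genes. It was -0.94 (SE 0.20) for FK506 against untreated and 0.00 (SE 0.20) for FK506 against papain. These SEs are drawn towards those of like genes, the residual SD of Malat1 itself being 0.61. Over the alternatives the 3 values ranged from -1.10 to -0.56, from -1.49 to -0.45 and from -0.61 to 0.49. The papain value was -0.56 without papain replicate 3. Without FK506 replicate 3, the library with ILC2 genes at 0, FK506 differed from untreated by -1.49 and from papain by -0.54, and without FK506 replicate 1 by -0.45 and 0.49.

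Of the genes tested in ILC2, 14.4% were lower with papain in both of replicates 1 and 2, and 19.5% were lower with FK506. The share past an adjusted p of 0.05 was 0% for papain, 0.0159% for FK506 against papain and 0% for FK506 against untreated. Unadjusted, 234 genes had p under 0.05 for papain and 250 for FK506 against untreated. Malat1 stood 2nd by unadjusted p for papain, and since this comparison was used to choose it, its place is only a description. Above it was Junb (-0.80, SE 0.16), an AP-1 transcription factor gene. Just below it was Fosl2 (-2.02, SE 0.45), another, and Cxcl2, a chemokine gene, was 4th (-1.07, SE 0.25).

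Replicate 3 of untreated ILC2 held 38192.0 CPM of airway secretory and ciliated markers, against 4.0 and 21 CPM in replicates 1 and 2. The immediate early and isolation stress genes of ILC2 summed to 16156.0 to 17389.0 CPM untreated, 11328.0 to 12569.0 CPM with papain and 13240.0 to 16343.0 CPM with FK506. The median log2 difference of the 22 tested was -0.82 for papain, against -0.22 for all genes, and none passed the test. In AEC1 the same list had a median of -0.74 against 0.16 for all genes, with 21 tested. The 20 nuclear speckle and splicing factors had a median of -0.44 in ILC2, where that of all genes was -0.22. None passed in either case. The part of these lists in the Malat1 values was not tested.

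In ILC2 the Neat1 level was 175, 247 and 114 CPM untreated, 215, 265 and 0 CPM under papain, and 276, 240 and 256 CPM when FK506 was added. Apart from the library at 0, the groups lay close together. The log2 difference was -1.92 (SE 1.00) for papain and rests on that library, being 0.22 without it. FK506 against papain gave 2.32 (SE 1.00, limma adjusted p = 0.91), which was -0.07 with replicates 1 and 2 only, 0.17 without papain replicate 3 and 0.88 without FK506 replicate 3. FK506 against untreated gave 0.40 (SE 1.00, limma adjusted p = 0.999), which was -1.06 without FK506 replicate 3 (adjusted p = 0.84).

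**Figure D2:**
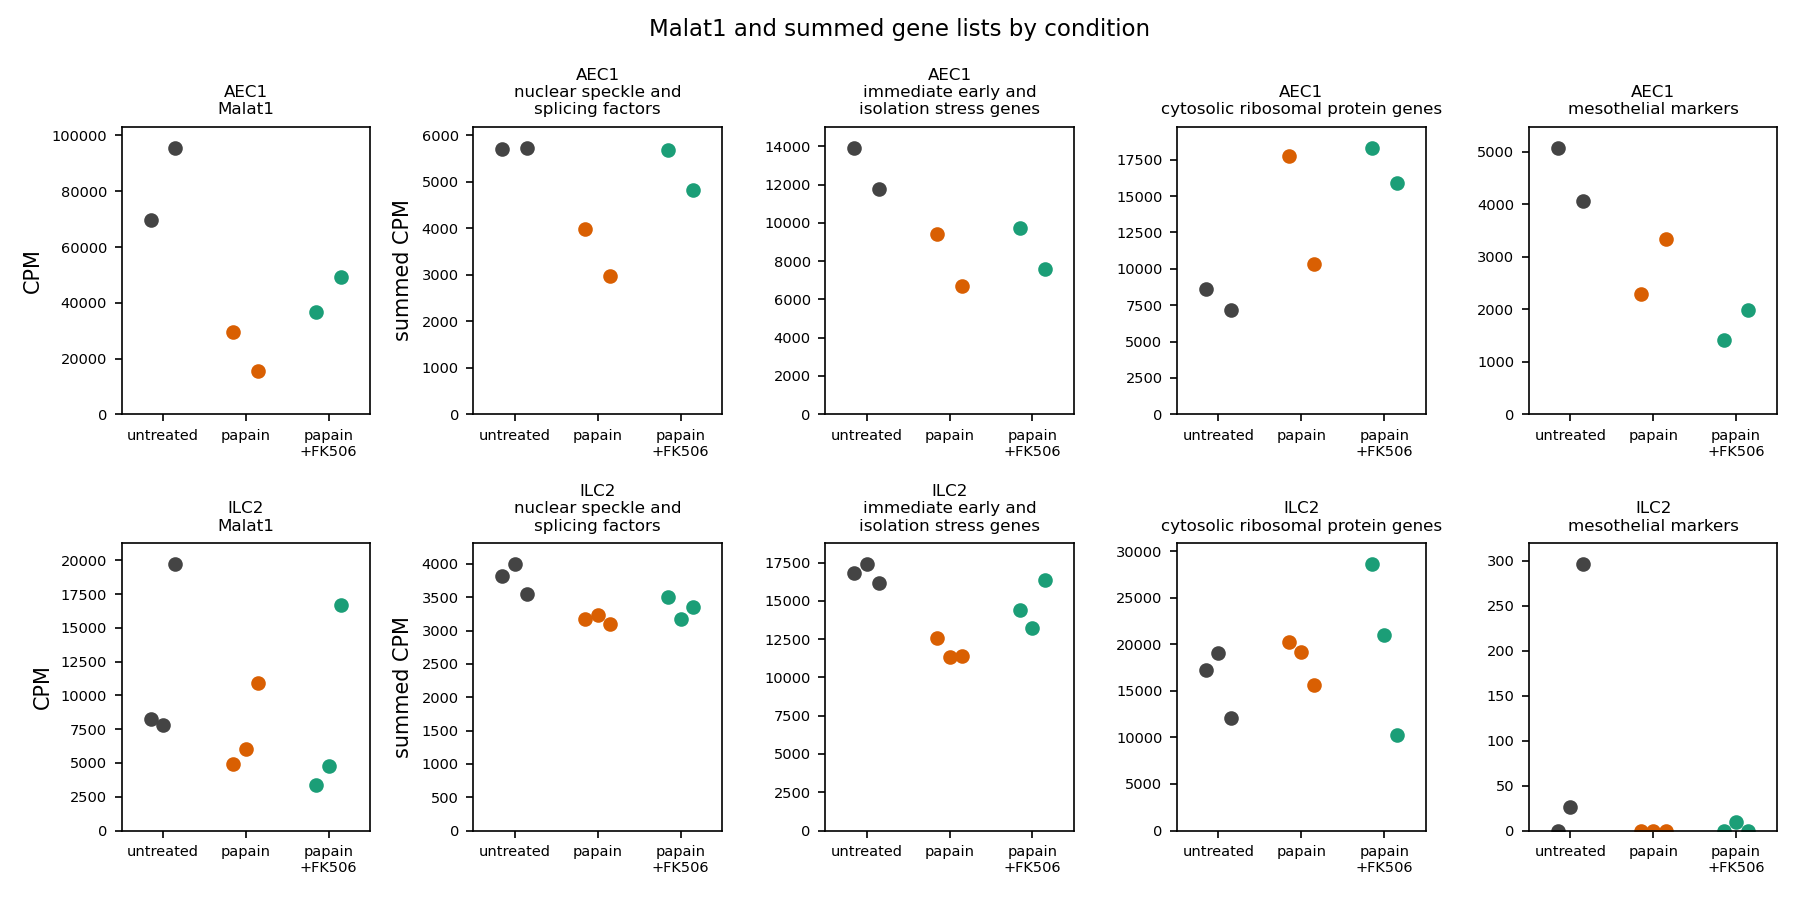
Malat1 (CPM) and the summed CPM of 4 gene lists in AEC1 (top) and ILC2 (bottom) libraries by condition; each point is a library. In AEC1 the splicing factor sum is 5703.5 and 5724.2 CPM untreated and 3986.3 and 2969.8 CPM with papain, and in ILC2 the immediate early sum is lowest with papain.

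In AEC2, neither RNA passed the test in any comparison. Malat1 was at 2586 and 5981.9 CPM untreated, 1580.4 and 6252.9 CPM with papain, and 5081.3 and 3683.9 CPM with FK506. The values 5981.9 and 6252.9 belong to the pair of libraries that nearly coincide. The log2 difference for papain was -0.48 (SE 0.59, limma adjusted p = 1), and without that pair it was -1.0 (adjusted p = 0.445). Without the pair, untreated and papain keep 1 library each, so the spread comes from the 2 FK506 libraries alone and the single libraries are assumed to vary like them. For FK506 against papain it was 0.47 (SE 0.59, limma adjusted p = 0.912), and 1.46 without the pair (adjusted p = 0.343). For FK506 against untreated it was -0.01 (SE 0.59, limma adjusted p = 0.998), and 0.46 without the pair (adjusted p = 0.601).

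Neat1 in AEC2 was at 67 and 90.0 CPM untreated, 53.6 and 83.0 CPM with papain, and 35.9 and 62.1 CPM with FK506. Its log2 differences were -0.37 (SE 1.10, limma adjusted p = 1), -0.47 (SE 1.10, adjusted p = 0.996) and -0.83 (SE 1.10, adjusted p = 0.928) in the same 3 comparisons. Without the pair they were -0.60 (limma adjusted p = 0.827), -0.17 (adjusted p = 0.916) and -0.76 (adjusted p = 0.714), under the same assumption. The share of genes past the test was 0% in each of them, with and without the pair. For papain, 15 genes had an unadjusted p under 0.05, and 487 without the pair. AEC2 untreated replicate 1 had no recovered reads. DESeq2 and edgeR therefore had only untreated replicate 2, from the nearly coinciding pair, so their calls against untreated are not given. For FK506 against papain, DESeq2 on the recovered reads called 79 of 3774 genes and edgeR called 0 of 6366. The papain group there held the other library of that pair. The FK506 difference of Neat1 in AEC2 minus that in AEC1 was -0.98 (SE 1.30, limma adjusted p = 0.956), and -0.62 without the pair (adjusted p = 0.937), with 0% of 9841 genes called for that interaction.

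The basophil comparisons with untreated rest on 1 untreated library, which held 2002 genes above 0 against 6401 to 7894 in the others, and the spread is taken from the treated groups. Their p-values assume that untreated libraries vary like the treated ones, which 1 library cannot show. Malat1 was at 7432.0 CPM there. Papain libraries had 12774.7, 16971.0 and 15107.6 CPM, and libraries with FK506 had 18767.4, 16409.0 and 13813.6 CPM. All 6 treated libraries lay above that value, though how many of all genes did so was not counted. The log2 difference was 1.39 (SE 0.47, limma adjusted p = 0.0424) for papain and 1.47 (SE 0.47, adjusted p = 0.032) for FK506 with papain. The median of all genes was itself 3.05 and 3.08 higher, so relative to that median Malat1 was at -1.66 and -1.62. Of all genes, 23.1% were called for papain and 23.3% for FK506. The Malat1 call for papain was lost under all 3 other scalings, where the difference was 0.94 to 1.0 (adjusted p = 0.114 to 0.147), and when papain replicate 4, 5 or 6 or FK506 replicate 8 or 9 was left out. The FK506 call was lost under the same scalings and without papain replicate 5 or 6 or FK506 replicate 8 or 9.

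Neat1 was at 867.0 CPM in the untreated basophil library, its highest value in the series. Papain libraries had 108.8, 302.2 and 382.9 CPM, and those with FK506 had 98.2, 390.0 and 219.3 CPM. All treated libraries lay below the untreated one, opposite to Malat1, though how many of all genes did so was not counted. The log2 differences of -1.50 (SE 0.84, limma adjusted p = 0.204) and -1.74 (SE 0.84, adjusted p = 0.149) did not pass. FK506 against papain gave 0.08 (SE 0.33, limma adjusted p = 0.966) for Malat1 and -0.24 (SE 0.59, adjusted p = 0.945) for Neat1, with 0% of genes called and 354 at an unadjusted p under 0.05.

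**Figure D3:**
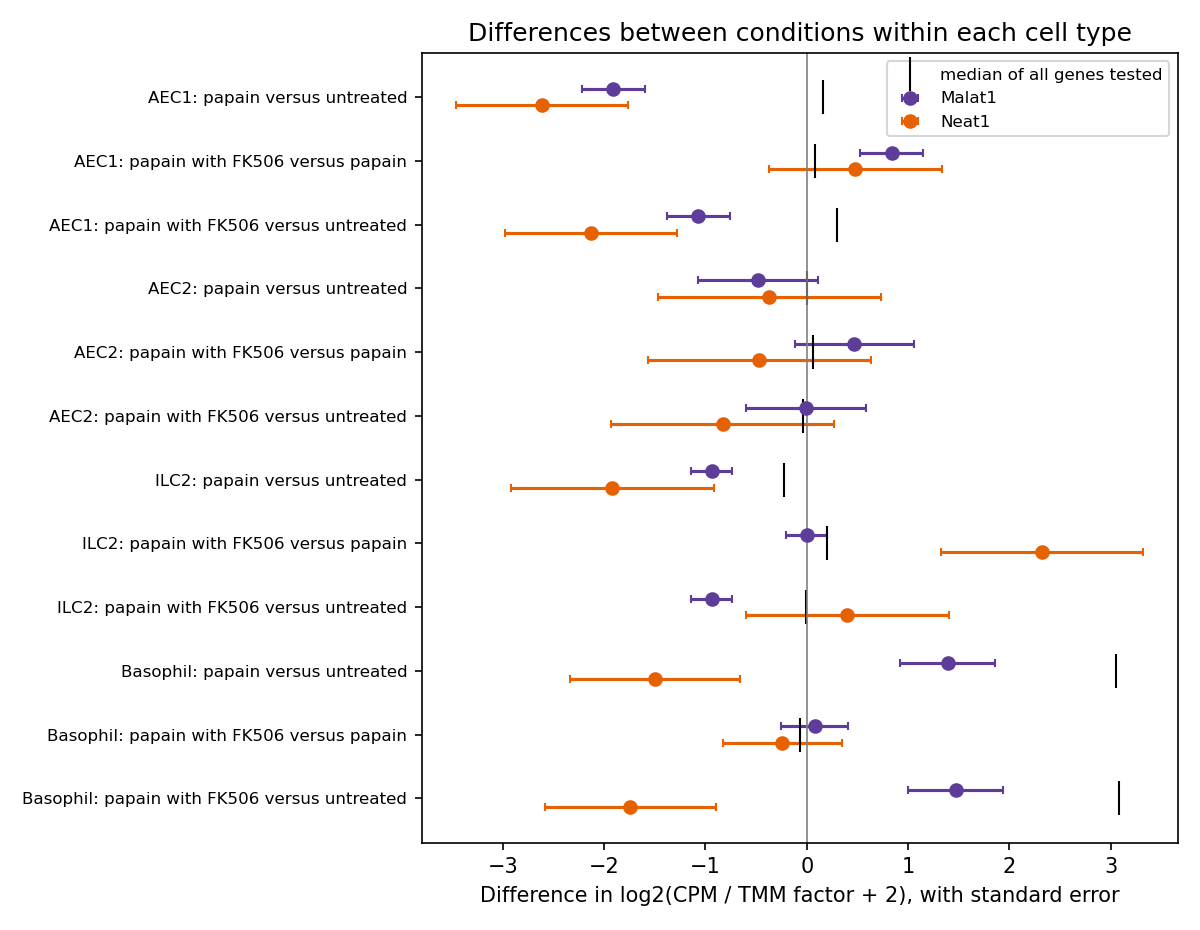
Log2 differences of Malat1 and Neat1 with standard errors in the 12 comparisons of conditions; the black mark is the median of all genes tested. Malat1 lies at -1.91 in AEC1 and -0.94 in ILC2 for papain, and the basophil comparisons with untreated have medians of 3.05 and 3.08.

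Between the epithelial populations, Malat1 was lower in AEC2 than in AEC1 and Neat1 did not pass the test. With condition as a term, the log2 difference for Malat1 was -3.38 (SE 0.26, limma adjusted p = 7.69e-10), which is 10.44-fold on this scale. Its SE is drawn towards those of like genes, the residual SD of Malat1 itself being 0.76. Over 18 alternatives the difference ranged from -3.81 to -3.18, and the limma adjusted p from 4.28e-22 to 1.13e-06. Each AEC2 library lay below each AEC1 library, though how many genes were apart in this way was not counted. The AEC2 libraries include the nearly coinciding pair. The median of all genes was -0.45, and 13.4% of 9841 genes were called. Without the pair of nearly coinciding AEC2 libraries the Malat1 difference was -3.81 (limma adjusted p = 1.3e-16). Neat1 gave -0.30 (SE 0.66, limma adjusted p = 0.801), and -0.44 without the pair (adjusted p = 0.755).

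The log2 ratio of Malat1 to Neat1 within a library, which does not depend on the scaling, was 5.87 ± 0.78 (SD, n = 6) in AEC2 and 8.95 ± 0.74 (SD, n = 6) in AEC1. The ranges, 4.83 to 7.07 and 7.84 to 10.1, did not overlap. The difference was -3.08 (two-sided exact permutation test, p = 0.00216, the smallest that 924 splits allow). Without the nearly coinciding pair it was -3.21 (exact permutation p = 0.00476). Because Ager was higher in AEC2 than in AEC1 libraries, these are differences between libraries so labelled.

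Some speckle factors were also lower in AEC2, in a comparison where 8.69% of all genes were called lower and 4.75% higher. Of 20 nuclear speckle and splicing factor genes tested, 4 fell and none rose: Srsf11 (-2.22, SE 0.47), Pnisr (-2.34, SE 0.50), Son (-1.05, SE 0.33), which encodes a core speckle protein, and Clk1 (-2.83, SE 0.95), a kinase of SR splicing factors. Their list median was -0.60, close to the -0.45 of all genes. Without the nearly coinciding pair, where 8.02% of all genes were called lower and 3.46% higher, 6 fell, these 4 among them, and the list median was -0.80 against -0.81 for all genes. The paraspeckle protein genes Sfpq (-0.39), Nono (-1.59) and Pspc1 (0.96) did not pass. Among 12 other long noncoding RNAs tested, with a median of -0.69, 2 fell, the imprinted Meg3 (-4.68, SE 0.87) and Kcnq1ot1 (-3.78, SE 0.86), and both passed without the pair. Of 14 neighbouring chromosome 19 genes tested, with a median of -0.89, Cdc42ep2 (-3.33) and Ehbp1l1 (-3.57) fell. Neither passed without the pair (limma adjusted p = 0.0796 and 0.129).

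The 2 RNAs were also compared across libraries within a cell type. Since Malat1 was chosen from the AEC1 and ILC2 libraries, the correlations there are a description with no test. In AEC1, Pearson's r was 0.87 and Spearman's rho 0.77 (n = 6), and r was 0.95 without the 2 libraries farthest from the Malat1 median. These 6 libraries span the 3 conditions. In ILC2, r was -0.04 and rho 0.07 (n = 9), and r was 0.55 after subtracting the mean of each file-name code. Without the 2 farthest libraries these r were -0.07 and 0.20. In basophils r was -0.50 and rho -0.43 (n = 7, exact permutation p = 0.278 and 0.354), and r was -0.28 without the 2 farthest libraries. AEC2 was left out, since 2 of its 6 libraries nearly coincide.

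**Figure D4:**
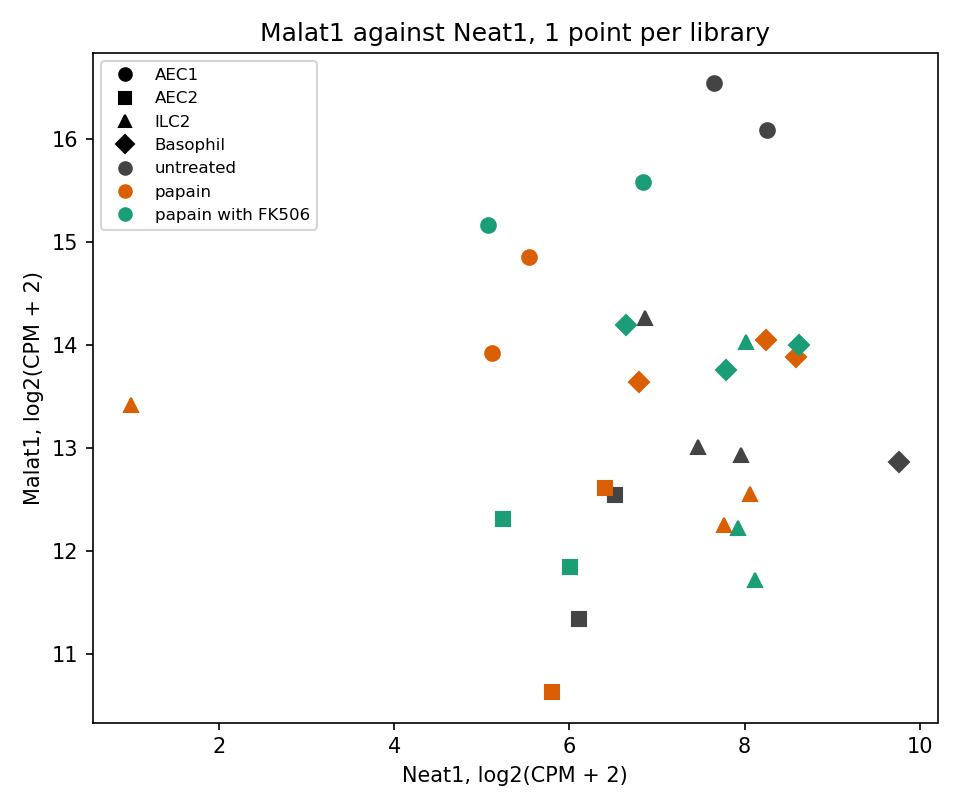
Malat1 against Neat1, both as log2(CPM + 2), with 1 point per library; the shape gives the labelled cell type and the colour the condition. AEC1 libraries lie above AEC2 libraries at like Neat1 levels, and 1 ILC2 library has Neat1 at 0.

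After the mean of each cell type was subtracted (in ILC2, of each file-name code), the genes most like Malat1 over the 28 libraries were Notch2 (Pearson r = 0.76), Ergic2 (0.75), Cfap36 (0.74), Nr4a2 (0.73) and Rsbn1 (0.73), out of 4268 genes compared. Those most like Neat1 were Rhoa (0.81), Cyth4 (0.78), Atf3 (0.77), Zfp36 (0.76) and Pcbp1 (0.76). The Neat1 ranking rests on ILC2 papain replicate 3, where Neat1 is listed at 0 and these 5 genes were at 0 to 25 CPM. Without it their r was 0.34 to 0.56 and none was among the 5 most like Neat1, while 3 of the 5 remained for Malat1. Between Malat1 and Neat1 themselves r was 0.32, which placed Neat1 1004th for Malat1. These correlations share libraries and depth and are a description. In AEC1, Notch2, which encodes a signalling receptor, had 135.8 and 135.7 CPM untreated and 5.3 and 12.3 CPM under papain.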

How the data were processed

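The members and gene lists were chosen with earlier results of these data known. Per the labels' protocols, a Lexogen 3' kit was used on 10 ng of RNA. Per the submitters' processing notes, STAR 2.7.0c, featureCounts 1.6.0 and the builds mm10 and GRCm38.p6 were used; their settings are not given in the sources used here. The authors deposited CPM for AEC1, 5 AEC2 and all basophil libraries. The deposited values of the ILC2 libraries and AEC2 untreated replicate 1 are whole numbers and were treated as a score, CPM rounded by the authors. Low CPM values were whole multiples of 1 read within 0.1 read, which gave reads for AEC1 and 5 AEC2 libraries.

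Genes with at least 10 CPM in at least 2 (AEC) or 3 (ILC2, basophil) libraries were kept. The test was limma 3.58.1 (R 4.3.3, with a variance trend) on log2 of the CPM over the TMM factor (edgeR 4.0.16) plus 2, two-sided, adjusted by Benjamini-Hochberg at 0.05. Fold changes on this scale understate changes of low genes. ILC2 fits had a file-name code term. The procedure was run on simulated counts with a single fixed dispersion and depth. These do not copy the spread between the real libraries, so the run does not show how the test behaves on them. DESeq2 1.42.0 and edgeR on recovered reads, other pseudocounts, scalings, filters and left-out libraries were alternatives. Named genes were the members, up to 4 passing genes per list and comparison, Sfpq, Nono, Pspc1 and Frmd8, those ranked beside Malat1, and the 5 most like each member; some of these are not reported here. Replicate numbers did not pair the libraries.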

Additional observations from a re-analysis of the deposited data

Results flagged for a closer look

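Malat1 moved in opposite directions with papain in 2 of the populations. The log2 difference was -1.91 in AEC1, where both papain libraries lay below both untreated libraries, and 1.39 in basophils, where all 3 papain libraries lay above the single untreated library. The difference between the populations was not tested. The median of all genes was 3.05 in the basophil comparison and 0.16 in the AEC1 comparison. Relative to these medians, Malat1 was at -1.66 in basophils and at -2.07 in AEC1, which have the same sign.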

How the results depend on the processing

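Of 441 alternative values of 32 results, 406 kept their direction and side of the threshold or stayed within the spread, 17 lost significance, 15 changed sign and 3 moved. All 17 losses were Malat1 in basophils against untreated. For papain the value was 1.39 with a pseudocount of 0.5 (adjusted p = 0.0599), 1.00 with no further scaling, 0.98 with median-ratio size factors, 0.94 rescaled over common genes, 1.38 with no filter, and 1.28 to 1.47 with 1 library left out. For FK506 with papain it was 1.12, 1.17 and 1.09 under the same 3 scalings and 1.33 to 1.55 with 1 library left out.

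Of the sign changes, none passed the test. With 1 library left out, FK506 against papain ranged from -0.46 to 1.42 for Neat1 in AEC1, from -0.54 to 1.48 for Malat1 in AEC2, from -0.03 to 0.22 for Malat1 in basophils and from -0.79 to 0.32 for Neat1 in basophils. Papain in AEC2 ranged from -1.51 to 0.54 for Malat1, and FK506 against untreated from -0.54 to 0.55 for Malat1 in AEC2 and from -1.06 to 1.05 for Neat1 in ILC2. Malat1 in AEC2 for FK506 against untreated was 0.14 with no further scaling and 0.46 without both nearly coinciding libraries, an alternative chosen after seeing the data. With ILC2 replicates 1 and 2 only, Neat1 was -0.07 for FK506 against papain and against untreated. Neat1 in ILC2 for papain ranged from -2.76 to 0.22, the last without papain replicate 3. The causes were not tested. The replicate block left Malat1 at -1.91 in AEC1 and -0.94 in ILC2 for papain and changed no call of either gene. With no further scaling, r between both RNAs in ILC2 was -0.31, and 0.40 after subtracting the mean of each file-name code. For papain in AEC2, 326 genes had an unadjusted p under 0.05 without untreated replicate 2 and 492 without papain replicate 2. Depth limits Neat1 in AEC1, at 27 to 270 reads.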
